A study of Debaryomyces hansenii with 6 samples.

Results

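The genes described here were higher early in salt than at time 0 in the yeast Debaryomyces hansenii. They were no longer higher by the same margin after 6 h. They were chosen by their measured values. A gene was taken when its mean log2 ratio of stressed over control RNA was at least 0.5 at 0.5 h, with a value above 0 on both arrays of that time, and when its mean at 6 h was below 0.4. In all, 65 of the 6320 genes on the array met this rule, or 1.03%. The 0.5 h and 6 h ratios of these 65 genes are therefore given as a description. The calls of the fit over all genes are printed for those times too, but nothing is read from them or from differences that include a 0.5 h or 6 h value. The rule made no use of the 3 h arrays.

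Each of 6 Agilent 2-colour arrays compared RNA from cells kept in 2 M NaCl for 0.5, 3 or 6 h with RNA from control cells collected at time 0, before salt was added to the same kind of culture in rich glucose medium (YPD). Every time was covered by 2 arrays. The stressed RNA carried Cy5 on the arrays called replicate 1 here, which the titles mark as rep. It carried Cy3 on those called replicate 2 here, which the titles mark as swap. Per the series design replicates 1 and 2 were made from different biological replicates, so dye orientation and replicate are the same split. No untreated culture of a later age was on the arrays, so a change with time in culture and a change from the salt cannot be told apart, and the labels name no strain. In RNA from whole cultures, a change in every cell and a change in part of the cells cannot be told apart either.

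D. hansenii is a salt-tolerant marine yeast that can grow in sodium at concentrations that stop most yeasts. As background from Saccharomyces cerevisiae, a sudden rise in osmolarity activates the HOG pathway, a kinase cascade that turns on genes for glycerol production, ion export and general stress defence. In that yeast much of the response is transient, with transcripts that rise within the first hour and return once the cell has regained its volume and turgor. The array files describe the genes only as unknown and the reference table gives locus names without functions, so the loci below carry no role. A locus name was found for 56 of the 65 genes, and the other 9 stay in the counts without being named.

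The share of probes that stood well above background ran from 76.4% to 91.9% over the arrays for the stressed RNA, and from 62.4% to 93.4% for the control RNA. The 93.4% belonged to the 3 h array of replicate 2, and the control share was at most 71.7% on the other arrays. Only on that 3 h array was the share higher for the control RNA than for the stressed RNA, at 78.9%. All 65 genes passed the filter on dim probes, none had a saturated spot, and 54 had a probe well above background in all 12 channel values. In the control channel the fewest of the 65 genes with such a probe were 57, on the 0.5 h array of replicate 2 and on the 3 h array of replicate 1. Across the 5966 genes tested, the 2 arrays of a time correlated with r = 0.51 at 0.5 h, 0.63 at 3 h and 0.74 at 6 h. With 2 arrays per time, their number limits the precision of every mean.

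**Figure D1:**
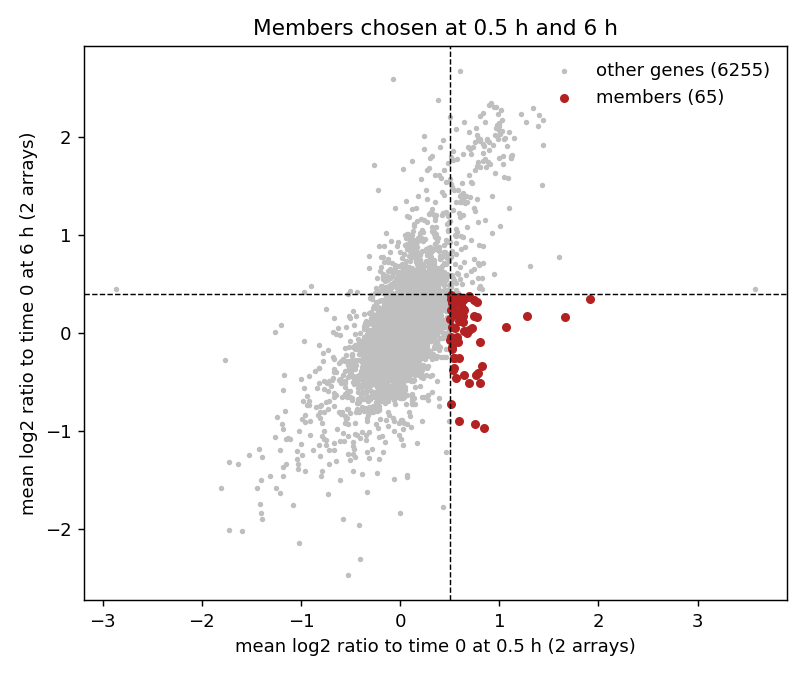
Mean log2 ratio of stressed over time-0 RNA at 0.5 h (horizontal axis) against 6 h (vertical axis), each a mean of 2 arrays. Grey points are the other genes of the array, red points the 65 genes chosen, and dashed lines the limits of 0.5 and 0.4; 4 of the 65 lie at or above 1 at 0.5 h, and 33 lie under 0.6.

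DEHA2E08866g had the highest 0.5 h ratio of the 65. Its log2 ratios in replicates 1 and 2 were 2.20 and 1.62 at 0.5 h, 0.08 and 2.40 at 3 h, and 0.86 and -0.17 at 6 h. The mean at 0.5 h was 1.91 ± 0.41 (SD, n = 2), or 3.76-fold. Both replicates were high at 0.5 h, but at 3 h one was near the control level and the other was higher than at 0.5 h, and at 6 h the replicates lay on either side of 0.

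DEHA2B05060g fell in the same order in both replicates. Its log2 ratios were 1.95 and 1.38 at 0.5 h, 0.60 and 0.87 at 3 h, and 0.36 and -0.05 at 6 h in replicates 1 and 2. The means were 1.66 ± 0.41, 0.74 ± 0.19 and 0.16 ± 0.29 (SD, n = 2), and the arrays of the 3 times did not overlap. DEHA2B16500g started less evenly, with 1.83 and 0.73 at 0.5 h, 0.49 and 0.84 at 3 h, and 0.23 and 0.11 at 6 h. Its 0.5 h and 3 h arrays overlapped, while both 6 h arrays were below all the others.

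DEHA2G05346g was the most even of these 4 at the first time, with 1.10 and 1.03 at 0.5 h. It then gave -0.06 and 0.98 at 3 h and 0.35 and -0.23 at 6 h. The replicates thus lay close together at 0.5 h, with a SD of 0.05, and apart at 3 h, with a SD of 0.73 (n = 2). These 4 loci were the only ones of the 65 with a mean of at least 1 at 0.5 h.

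**Figure D2:**
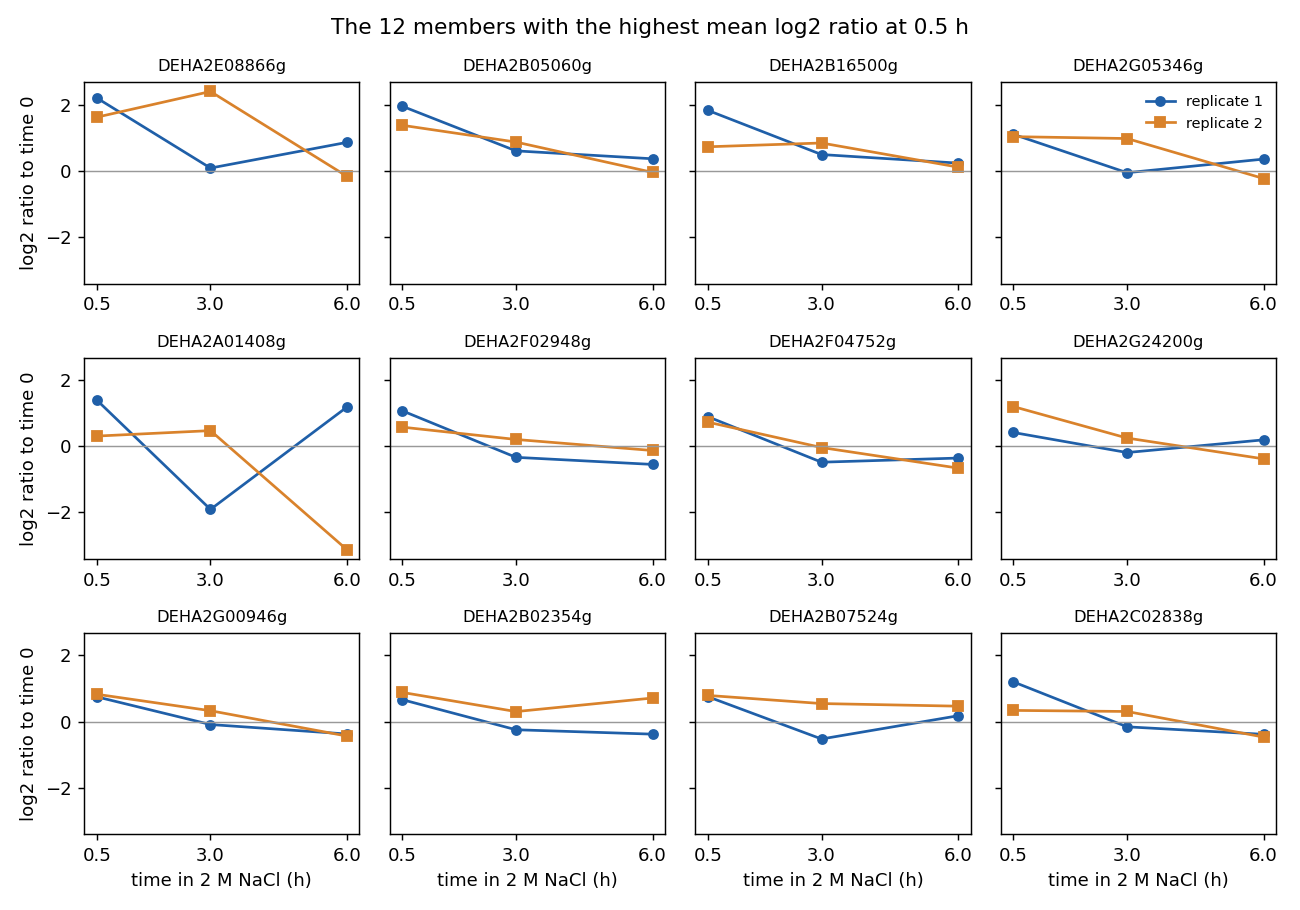
Log2 ratio of stressed over time-0 RNA (vertical axis) at 0.5, 3 and 6 h in 2 M NaCl (horizontal axis) for the 12 loci with the highest mean at 0.5 h, one line per replicate. All 24 values at 0.5 h lie above 0, DEHA2B05060g falls from 1.66 to 0.16 by its means, and the replicates of DEHA2A01408g lie at 1.18 and -3.13 at 6 h.

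The next 8 loci had 0.5 h means between 0.77 and 0.85. DEHA2A01408g had replicates that went opposite ways, with log2 ratios in replicates 1 and 2 of 1.40 and 0.30 at 0.5 h, -1.91 and 0.47 at 3 h, and 1.18 and -3.13 at 6 h. Its 6 h mean of -0.97 ± 3.05 (SD, n = 2) was the lowest of the 65, with the widest spread, and was below 0 through replicate 2 alone. DEHA2F04752g gave 0.89 and 0.73 at 0.5 h, -0.48 and -0.04 at 3 h, and -0.36 and -0.66 at 6 h, so that both replicates had passed below the control level by 3 h and stayed there.

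DEHA2G00946g followed a similar course at 0.5 h and 6 h, with 0.75 and 0.82 at 0.5 h, -0.09 and 0.33 at 3 h, and -0.38 and -0.44 at 6 h. DEHA2F02948g gave 1.07 and 0.58 at 0.5 h, -0.34 and 0.20 at 3 h, and -0.55 and -0.13 at 6 h. DEHA2C02838g gave 1.20 and 0.34 at 0.5 h, -0.16 and 0.30 at 3 h, and -0.39 and -0.47 at 6 h. In these 3 loci the 2 replicates had the same sign at 0.5 h and 6 h and opposite signs at 3 h. DEHA2B07524g, DEHA2B02354g and DEHA2G24200g had means of 0.77, 0.77 and 0.81 at 0.5 h and of 0.32, 0.16 and -0.10 at 6 h, and the 6 h arrays of the last 2 loci had opposite signs.

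Most of the 65 genes were raised by little. The median of the 0.5 h means was 0.60, 33 of the 65 lay under 0.6, and 18 lay under 0.55. The median ratio was 0.63 on the 0.5 h array of replicate 1 and 0.61 on that of replicate 2, where the medians of all genes tested were near 0. Only 26 of the 65 were at or above 0.5 on each of the 2 arrays. DEHA2G23958g, with 1.15 in replicate 1 and 0.04 in replicate 2, entered through 1 array.

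At 0.5 h, limma called 1 of the 65 higher at an adjusted p of 0.05, against 0.0335% of the 5966 genes tested. This gene was DEHA2B05060g, and because its 0.5 h value chose it, nothing is read from the call. The limits of the rule also cut through a continuous range of values. Just inside the 0.5 h limit lay DEHA2C04554g at 0.501, DEHA2G02926g at 0.503 and DEHA2C04510g at 0.510, and just outside it lay DEHA2E07502g at 0.497, DEHA2B02178g at 0.496 and DEHA2D12606g at 0.493. A further 51 genes had 0.5 h means from 0.4 up to the limit and met the rest of the rule.

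At 6 h the 65 genes had not all returned to the control level. Their means ran from -0.97 to 0.38 with a median of 0.14. In 41 of them the mean was still above 0, and in 23 it was above 0.2. The other 24 lay below 0, 6 of them at -0.5 or lower. Just inside the 6 h limit lay DEHA2C03058g at 0.384, DEHA2G10274g at 0.374 and DEHA2C02508g at 0.366, and just outside it lay DEHA2B03124g at 0.405, DEHA2B07304g at 0.408 and DEHA2G14872g at 0.417. The rule sets an upper limit at 6 h and no lower one, so the 65 genes include some still somewhat above the control level and some below it.

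Among the 5 lowest loci at 6 h, DEHA2C04510g had values of 0.40 and 0.62 at 0.5 h, -0.59 and -0.29 at 3 h, and -0.55 and -0.89 at 6 h. Its 6 h mean was -0.72 ± 0.24 (SD, n = 2). It was the 1 gene of the 65 that limma called lower at 6 h, against 2.67% of all genes tested, and nothing is read from the call because 6 h values chose the genes. None of the 65 was called higher at 6 h, against 4.78% of all genes, as the rule's upper limit favours; at an unadjusted p under 0.05 limma gave 1 of the 65 higher, against 13.5% of all genes. DEHA2A12144g gave 0.92 and 0.59 at 0.5 h, 0.03 and -0.04 at 3 h, and -0.21 and -1.66 at 6 h. DEHA2G23958g gave -0.79 and -0.43 at 3 h and -0.34 and -1.47 at 6 h. Both replicates of these 3 loci were below the control level at 6 h. This held for 18 of the 65 genes (27.7%), against 34.2% of all genes tested, and 25 (38.5%) had both replicates above it, against 37%.

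In 58 of the 65 genes the ratio was lower at 6 h than at 0.5 h in each of the 2 replicates, a direction that the rule favours. For the difference between 6 h and 0.5 h, limma called 0 of the 65 lower, and 0 of all 5966 genes (0%). At an unadjusted p under 0.05, 27 of the 65 and 3.6% of all genes were lower in limma, and nothing is read from these counts because the rule had used both times. For 3 h minus 0.5 h limma likewise called 0 of the 65 and 0 of all genes lower, with 17 of the 65 and 4.31% of all genes at an unadjusted p under 0.05. The choice of genes with a high 0.5 h value favours such lower differences, so nothing is read from these counts either.

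The signals of the 2 dyes were then read apart, after the brightness of the arrays had been set to a common distribution (Aquantile in limma). The control signals of the 0.5 h and 6 h arrays were nearly alike within each replicate. Across the genes tested, the difference between them had a SD of 0.142 in replicate 1 and 0.141 in replicate 2. The control signal of the 3 h array stood further away, with a SD of 0.442 to the 0.5 h control in replicate 1 and of 0.358 in replicate 2. This was noticed after the values were seen, and no label tells whether a control culture or extract served several arrays.

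The control signals also differed between the replicates in a pattern that turned at 3 h. The difference between the controls of replicates 1 and 2 correlated across genes with r = 0.84 between 0.5 h and 6 h, but with r = -0.26 between 0.5 h and 3 h and r = -0.18 between 3 h and 6 h. The 3 h control of replicate 1 lay closer to the 0.5 h control of replicate 2, with a SD of 0.347, than to that of its own replicate. The 3 h control of replicate 2 was about as far from that of the other replicate, with a SD of 0.355, as from its own. Whether the 3 h controls were exchanged between replicates was not tested, and the 3 h ratios are given as the labels assign them. In DEHA2A01408g the log2 control signal was 10.3, 11.5 and 10.3 on the 0.5, 3 and 6 h arrays of replicate 1 and 11.5, 10.1 and 11.5 on those of replicate 2. If arrays of different times shared a control, the 3 h ratios would not all be independent of the values that chose the genes. The part of these controls in the 3 h ratios given below was not tested.

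Because the rule took a high ratio at 0.5 h and a lower one at 6 h, and the controls of these times were alike, a lower stressed signal at 6 h follows from the choice of genes. Its size is given as a description. The median change of the stressed signal from 0.5 h to 6 h was -0.65 in replicate 1 and -0.49 in replicate 2, where the median change of the control signal was -0.02 and -0.01. The stressed signal was lower at 6 h in 64 of 65 genes in replicate 1 and in 60 of 65 in replicate 2, where 48.4% and 51.7% of all genes tested were lower. In DEHA2B05060g the stressed log2 signal went from 10.4 to 8.78 in replicate 1 and from 10.4 to 9.02 in replicate 2. Its control signal moved from 8.47 to 8.41 and from 9.05 to 9.07.

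**Figure D3:**
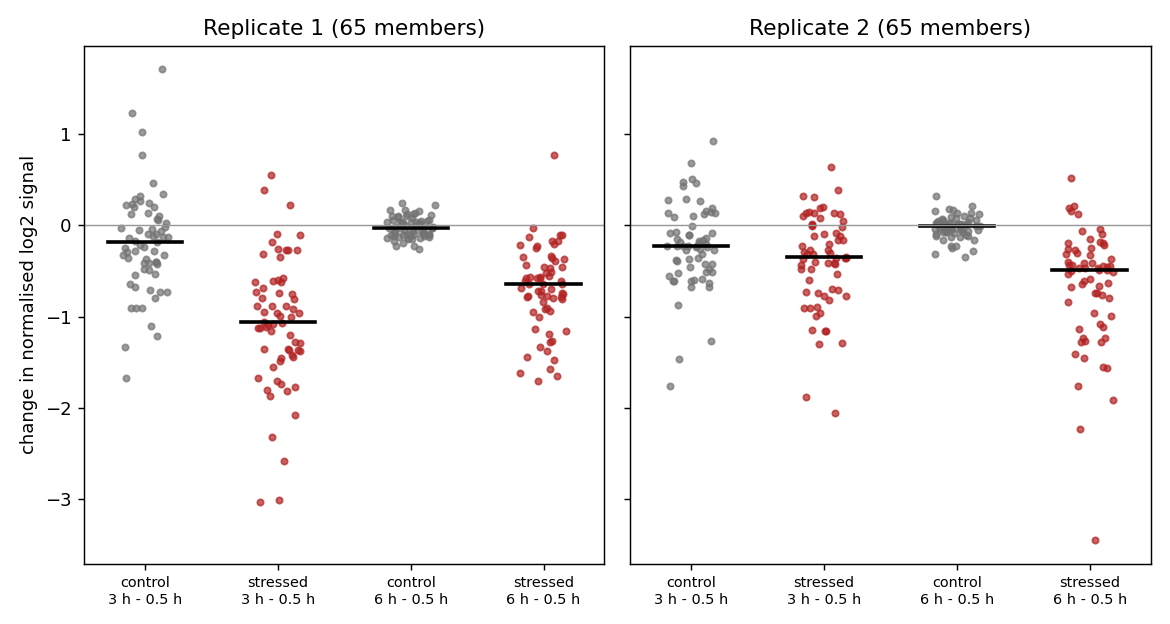
Change in the normalised log2 signal of the control channel (grey) and of the stressed channel (red) from the 0.5 h array to the 3 h and 6 h arrays, 1 point per gene for the 65 genes, in replicate 1 (left) and replicate 2 (right). Black bars are medians; from 0.5 h to 6 h they are -0.02 and -0.01 for the control and -0.65 and -0.49 for the stressed signal.

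The 3 h arrays were not part of the rule. The median of the 65 means at 3 h was 0.18, where that of all genes tested was -0.01. Of the 65 genes, 32 had a 3 h mean between their 0.5 h and 6 h means, 11 were higher at 3 h than at 0.5 h and 22 were lower at 3 h than at 6 h. In limma, with Benjamini-Hochberg adjustment over all 5966 genes, 6 of the 65 passed the threshold of 0.05 at 3 h, or 9.23%, against 5.95% of all genes tested. Of these 6, 4 rose, against 3.74% of all genes, and 2 fell, against 2.21%. At an unadjusted p under 0.05, 21 of the 65 (32.3%) stood in limma, against 28.5% of all genes. By size alone, 15 (23.1%) had a 3 h mean of at least 0.5, against 10.6% of all genes, and 7 (10.8%) a mean of -0.5 or lower, against 7.96%. The calls among the 65 were thus few and lay in both directions, at shares not far from those of the whole array. The fit shared a gene's spread over all 6 arrays, so a p-value at 3 h does not measure the 3 h SD printed beside it. The 0.5 h and 6 h arrays, which chose the genes, thus entered these p-values. The 3 h arrays had the wider spread between replicates, as given below.

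DEHA2F00990g was the highest of the named loci called at 3 h, with log2 ratios of 0.64 and 0.92 in replicates 1 and 2. Its mean was 0.78 ± 0.20 (SD, n = 2), with an adjusted p of 0.0332 in limma. At 0.5 h it gave 0.72 and 0.33, and at 6 h -0.19 and -0.10, so that both replicates were above 0 at the first 2 times and below it at 6 h. DEHA2G02926g rose with 0.50 and 0.84 at 3 h (adjusted p = 0.0406 in limma), and DEHA2G16148g with 0.51 and 0.72 (adjusted p = 0.0391 in limma). The fourth gene that rose has no locus name and a mean of 0.80 at 3 h. Both replicates of these genes were above 0 at 3 h, with replicate 2 the higher.

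DEHA2C02508g and DEHA2F01364g fell at 3 h. DEHA2C02508g gave -1.25 and -0.60 at 3 h, a mean of -0.92 ± 0.46 (SD, n = 2) with an adjusted p of 0.0404 in limma. It was above the control level before and after, with 0.35 and 0.84 at 0.5 h and 0.36 and 0.37 at 6 h. DEHA2F01364g gave 0.56 and 0.49 at 0.5 h, -0.99 and -0.59 at 3 h, and -0.08 and -0.25 at 6 h, and its 3 h mean of -0.79 ± 0.29 (SD, n = 2) had an adjusted p of 0.0303 in limma. All 5 named loci had both 3 h arrays on the same side of 0.

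The other loci at the extremes of the 3 h means did not pass. DEHA2E08866g had the highest mean, 1.24 ± 1.64 (SD, n = 2), with an adjusted p of 0.166 in limma. DEHA2B05060g, at 0.74, had an adjusted p of 0.0601. DEHA2B07744g gave 0.40 and 1.71 at 3 h, and DEHA2F03234g 0.22 and 1.22. Among the lowest, DEHA2F19932g gave -0.86 and -0.32 with an adjusted p of 0.0849 in limma, after 0.57 and 0.56 at 0.5 h. These 5 loci had the same sign on both 3 h arrays, and replicate 2 was the higher one in each.

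The 6 calls depended on which arrays entered the fit. The number of calls over all genes at 3 h changed with the array left out too. A fit without 1 array leaves 1 array at that time, so its calls are not read as a result about the 65 genes. Without the 3 h array of replicate 1 the median 3 h ratio of the 65 genes was 0.47, where that of all genes tested was -0.02. Without the 3 h array of replicate 2 it was -0.08, where that of all genes tested was 0.01. Across 15 other settings each call of the 5 named loci ended in 9 to 11, and none changed sign.

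Between replicates the median SD of the 65 genes was 0.42 for the 3 h arrays, against 0.18 for those of 0.5 h and 0.21 for those of 6 h. All genes tested had 0.20, 0.13 and 0.13. On the 3 h array of replicate 1 the median ratio of the 65 genes was -0.08, and 25 of them (38.5%) were above 0, against 51.2% of all genes tested. On that of replicate 2 the median was 0.47, and 54 (83.1%) were above 0, against 48.7% of all genes. In 31 of the 65 genes (47.7%) replicate 1 was below 0 and replicate 2 above it, a split found in 15.3% of all genes tested. The opposite split was found in 2 of the 65 and in 17.8% of all genes. Both replicates were above 0 in 23 of the 65 (35.4%), against 33.4% of all genes, and both below it in 9 (13.8%), against 33.5%. Replicate 2 minus replicate 1 had a median of 0.55 for the 3 h arrays, against -0.07 for those of 0.5 h and 0.08 for those of 6 h.

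**Figure D4:**
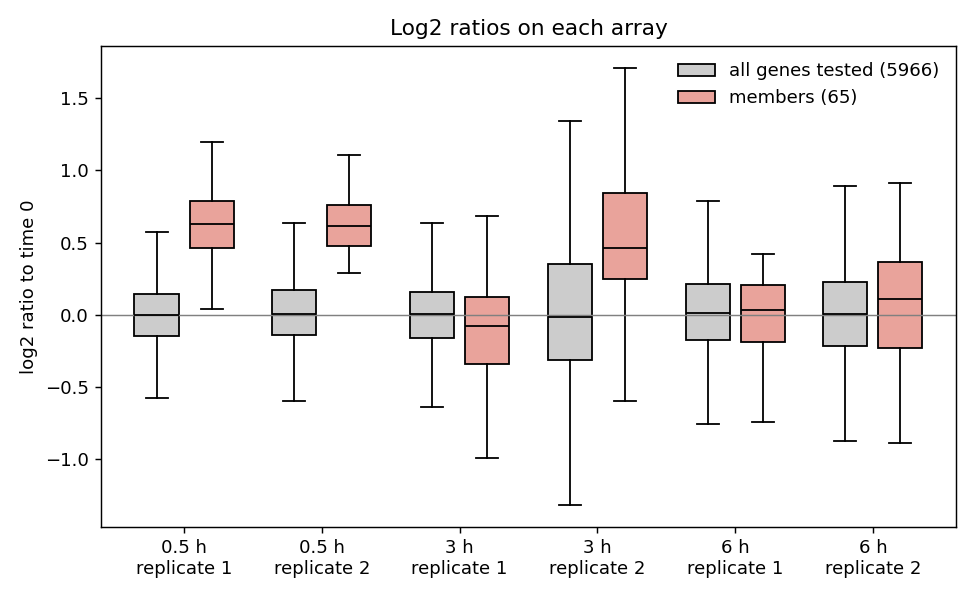
Log2 ratio of stressed over time-0 RNA (vertical axis) on each of the 6 arrays for all 5966 genes tested (grey) and the 65 genes chosen (red). Boxes span the quartiles with the median as a line, whiskers reach to 1.5 times the box height, and points beyond are not drawn; at 3 h the median of the 65 genes is -0.08 in replicate 1 and 0.47 in replicate 2.

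The 2 signals were also read apart at 3 h. From 0.5 h to 3 h the stressed signal of the 65 genes changed by a median of -1.06 in replicate 1 and of -0.34 in replicate 2, while the control signal changed by -0.18 and -0.23. The stressed signal was lower at 3 h than at 0.5 h in 62 of the 65 genes in replicate 1 and in 49 of 65 in replicate 2, where 50.6% and 48.5% of all genes tested were lower. The 0.5 h values chose the genes, which favours a fall. By these medians the stressed signal fell by less in replicate 2, while the control signal fell by a similar median in both. Dye, biological replicate and the control used at 3 h cannot be told apart on these arrays.

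A total of 232 genes met the 0.5 h part of the rule, and 167 of them were not below 0.4 at 6 h. At 3 h, 76 of these 167 were called higher (45.5%) and 0 lower, beside the 4 and 2 of the 65 genes. Their median 3 h mean was 1.28, beside 0.18. In replicate 1 at 3 h, 86.8% of the 167 were above 0, beside 38.5% of the 65. Replicate 2 minus replicate 1 had a median of 1.06 at 3 h in the 167, beside 0.55 in the 65. The median SD between replicates of the 167 was 0.75 at 3 h, against 0.33 at 0.5 h and 0.33 at 6 h. A wider gap between replicates at 3 h was thus not particular to the 65. The 2 sets were divided by their 6 h values, so the 3 h values are set side by side without a test.

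Replicates 1 and 2 were different biological replicates per the series design. As a description chosen after the data were seen, the rule was also applied to the arrays of 1 replicate. The values were then read on the arrays of the other replicate, which that choice did not use. The labels do not tell whether a control was shared between arrays, and dye orientation is the same split as replicate. Replicate 1 alone gave 127 genes among those tested. On the 0.5 h array of replicate 2, 101 of these (79.5%) were above 0 and 34 (26.8%) at or above 0.5, against 51.5% and 6.57% of all genes tested. Their median there was 0.18. Replicate 2 alone gave 108 genes, of which 68 (63%) were above 0 and 22 (20.4%) at or above 0.5 on the 0.5 h array of replicate 1, against 49.7% and 4.53%, with a median of 0.19. At 0.5 h most genes of each set had a ratio above 0 in the other replicate, at medians well under the limit of 0.5. These sets are not the genes that the rule chose from both replicates, and each was read on 1 array per time. Whether the early rise recurs between replicates was not tested.

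At 6 h the median of the 127 genes in replicate 2 was 0.10 and that of the 108 genes in replicate 1 was -0.03, close to the medians of all genes of 0.01 in each. At 3 h the 2 sets parted. In replicate 2 the 127 genes had a median of 0.58 with 83.5% above 0, and in replicate 1 the 108 genes had a median of -0.20 with 25% above 0. Each of these 3 h readings came from 1 array, that of replicate 2 for the 127 genes and that of replicate 1 for the 108 genes. If the 3 h controls were shared or exchanged between replicates, neither array would be independent of the choice made in the other replicate. This was not tested.

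The array carries 2 probes per gene, which read the same RNA and were averaged before the rule was applied. At 0.5 h both probes were above 0 in all 65 genes and at or above 0.5 in 48, and they differed by over 0.5 in 1 gene, which has no locus name. Its probes gave 1.17 and 0.22. One probe of this gene was well above background in all 12 channel values and the other in 0 of them, so its mean includes a dim probe. The 2 probes of a gene differed by a median of 0.10 in the 0.5 h means, 0.17 in those of 3 h and 0.12 in those of 6 h. DEHA2A01408g gave 0.88 and 0.82 by its brighter and dimmer probe at 0.5 h and -0.96 and -0.99 at 6 h, so both probes gave nearly the same mean. The probes of DEHA2F19932g stood further apart at 3 h, at -0.28 and -0.90. The median GC content of the 130 probes was 40.0%, and that of all 12640 probes 36.7%.

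In the order of loci in the reference table, 2 of the named genes were direct neighbours and another 2 were separated by 1 locus. DEHA2C03058g and DEHA2C03080g lie side by side. Their means at 0.5, 3 and 6 h were 0.52, 0.65 and 0.38 for the first and 0.64, 0.44 and 0.24 for the second, and DEHA2C03036g on the other side of DEHA2C03058g gave 0.12, 0.19 and -0.31. DEHA2C04510g and DEHA2C04554g lie on either side of DEHA2C04532g, which was just under the limit at 0.5 h with 0.45 and gave 0.09 and 0.30 later.

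Some probes of the second stretch shared a run of bases with a probe of another gene. Probes of DEHA2C04510g and of its neighbour DEHA2C04488g shared a run of at least 25 bases, and the neighbour gave 0.37, -0.54 and -0.49 at the 3 times. Probes of DEHA2C04554g shared such a run with those of another of the 65 genes, which has no locus name and gave 0.52 at 0.5 h. The ratios of these genes are uncertain to that extent, since RNA of one may bind the probe of the other. None of the other 62 genes shared such a run with a probe of another gene.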

How the data were processed

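Total RNA was amplified, labelled with Cy3 or Cy5 and hybridised to 2-colour Agilent arrays. Per the file headers, Feature Extraction 9.1.3.1 gave the deposited spot intensities, and per the labels the authors worked from their medians. The deposited series table holds log2 ratios, and limma is named in the submitters' processing notes. Its scale and direction were found by comparison with the scanner values, and it served as an alternative.

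Here, with R 4.3.3 and limma 3.58.1, median signals were corrected by normexp (offset 50), normalised by loess within each array with control spots at weight 0, and turned to stressed over control. Outlier spots (18 values, 0 of them in the 65 genes) were left out and the 2 probes of a gene averaged. The test took the 5966 of 6320 genes that had, in 2 or more of the 12 channel values, a probe well above background. One limma fit had a coefficient for each time and a spread per gene shared by all 6 arrays. It used Benjamini-Hochberg adjustment and a threshold of 0.05. The steps were tested on simulated data with changes planted at 3 h. The fit recovered 72% of log2 changes of 1 and 92% of log2 changes of 2, and called 13 unchanged genes. The simulated noise was independent between arrays with the same spread at all times, unlike these data, where the 3 h arrays spread more widely.

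Locus names came from RefSeq (assembly ASM644v2), where 5348 genes matched. The pathway lists could not be applied, since no functions were given. Members and lists were chosen with earlier results of these data known. Named loci were the 12 highest at 0.5 h, the 5 highest and lowest at 3 h, the 5 lowest at 6 h, those called at 3 h, the 3 nearest each limit and neighbouring pairs. The alternatives were other background corrections, scaling, probes, filters, moderation, the deposited values, a replicate block and leaving out each array.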

Additional observations from a re-analysis of the deposited data

Results flagged for a closer look

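In some of the named loci both arrays were above 0 at 0.5 h and both were below 0 at a later time. These differences in log2 ratio rest on values that chose the genes, so they are given as values. Taking 6 h minus 0.5 h, the differences were -1.69 for DEHA2A12144g, -1.50 for DEHA2G23958g, -1.32 for DEHA2F04752g and -1.23 for DEHA2C04510g. They were -1.20 for DEHA2C02838g, -1.19 for DEHA2G00946g, -1.16 for DEHA2F02948g and -1.03 for DEHA2F19932g. The smallest of these differences were -0.69 for DEHA2F01364g, -0.67 for DEHA2F00990g and -0.57 for DEHA2C04554g.

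Taking 3 h minus 0.5 h, the differences were -1.52 for DEHA2C02508g, -1.32 for DEHA2F01364g and -1.20 for DEHA2G23958g. They were -1.16 for DEHA2F19932g, -1.07 for DEHA2F04752g and -0.95 for DEHA2C04510g. In limma 0 of the 5966 genes tested passed an adjusted p of 0.05 as lower for either difference, while 215 and 257 genes had an unadjusted p under 0.05 at 6 h and 3 h.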

How the results depend on the processing

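The count of all genes called at 3 h, 355, was 57 without background correction, 231 with the processed signals, 234 with median centring, 44 with the deposited values, 854 with a replicate block and 28 to 1025 with 1 array left out. With trended and robust moderation limma called 0, where 1777 had an unadjusted p under 0.05. The 4 members called higher became 0 without background correction, with processed signals, with trended moderation and with the deposited values, 1 with median centring, 2 with the brighter probe, 7 with the replicate block and 0 to 16 with 1 array left out. The 2 called lower became 0 without background correction, with trended moderation and with the deposited values, 1 with processed signals or the brighter probe, 3 with median centring, and 0 to 1 with 1 array left out, and stayed at 2 with the replicate block. In limma, the unadjusted counts of members under these settings were 11 to 19 higher and 4 to 8 lower, apart from the arrays left out. The cause of these changes was not tested. The titles mark the arrays as rep or swap, and the replicate numbers 1 and 2 were given here from these marks. Arrays with the same mark share a dye orientation, and the labels do not say whether they share a culture. Deviations of these arrays from the time means correlated at 0.21, 0.32 and 0.35 for the 3 pairs of times. The main fit held no replicate block.

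The median 3 h ratio of the members was 0.02 with median centring, 0.47 without the 3 h array of replicate 1 and -0.08 without that of replicate 2. The rule gave 271 members with processed signals, 51 of them shared, and 53 to 151 with 1 array left out. It gave 50 to 94 under the other settings, where median centring shared 32 of the 65. With 2 arrays per time, small ratios near the limits cannot be placed firmly on either side.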
